A study of Mus musculus with 20 samples.

Results

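Regulators and effectors of the epithelial-mesenchymal transition were followed in cells sorted from mouse mammary tumours. The members were set by gene name. They are the transcription factors Snai1, Snai2, Twist1, Twist2, Zeb1, Zeb2, Prrx1 and Grhl2, the adhesion protein gene Cdh2 and the filament protein gene Vim, and all 10 were among the 52783 genes of the count table. The 20 libraries came from 10 untreated female BALB/cJ mice, 8 to 12 weeks old when purchased, each with 1 tumour grown from 1000000 cells injected into the mammary fat pad. Of these tumours, 5 were grown from 66cl4 cells, which metastasise, and 5 from 67NR cells, which do not, and both are lines of the 4T1 mouse breast cancer model. Each tumour was dissociated and viable cells were sorted on CD45, the surface protein of leukocytes encoded by Ptprc, into 1 library of CD45+ immune cells and 1 library of CD45- cells. The CD45- gate holds the injected tumour cells together with the fibroblasts, pericytes and endothelial cells of the host, and each tumour type stands for 1 cell line.

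In an epithelial-mesenchymal transition, epithelial cells loosen their junctions, lose apical-basal polarity and take on the shape and motility of mesenchymal cells. The Snail, Twist and Zeb factors bind E-boxes, short DNA motifs, and repress junction genes such as Cdh1, which encodes E-cadherin, while Prrx1 drives a related mesenchymal programme and Grhl2 holds cells in the epithelial state. The same mesenchymal factors are used by fibroblasts and other stromal cells, and Zeb2 and vimentin are also made by leukocytes.

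Ptprc was higher in the CD45+ library than in the CD45- library of the same animal in 10 of 10 animals. It stood at 10.6 to 161 normalised reads in the 66cl4 CD45- libraries and at 145 to 473 in those of 67NR, against 15890.1 to 28449 in the CD45+ libraries of both tumours. Normalised reads are estimated counts divided by a size factor for each library. Library totals were 12959951 to 28080226 counts. In 66cl4, the cell type on record for animals 5 and 6 does not match the library title. Libraries were grouped by title, and calls that change without these animals are given both ways. The title of the CD45- library of 66cl4 animal 5 reads CD46 in place of CD45. It was placed by its tumour, animal and negative gate.

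The first comparison asked how the CD45- cells of metastatic 66cl4 tumours differ from those of non-metastatic 67NR tumours. Snai1, Snai2, Prrx1 and Grhl2 were lower in 66cl4, by 45.1, 8.79, 6.12 and 5.70-fold in the ratio of means, and no member was called higher, against 13.2% of all genes tested. A gene was called changed at an adjusted p under 0.05 in edgeR's quasi-likelihood test together with a log2 fold change of more than 1 in size. By this rule 4 of 10 members were called, all lower, against 32.2% of all genes tested and 18.9% called lower. In bulk libraries fewer cells of a type and less RNA per cell cannot be told apart.

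**Figure D1:**
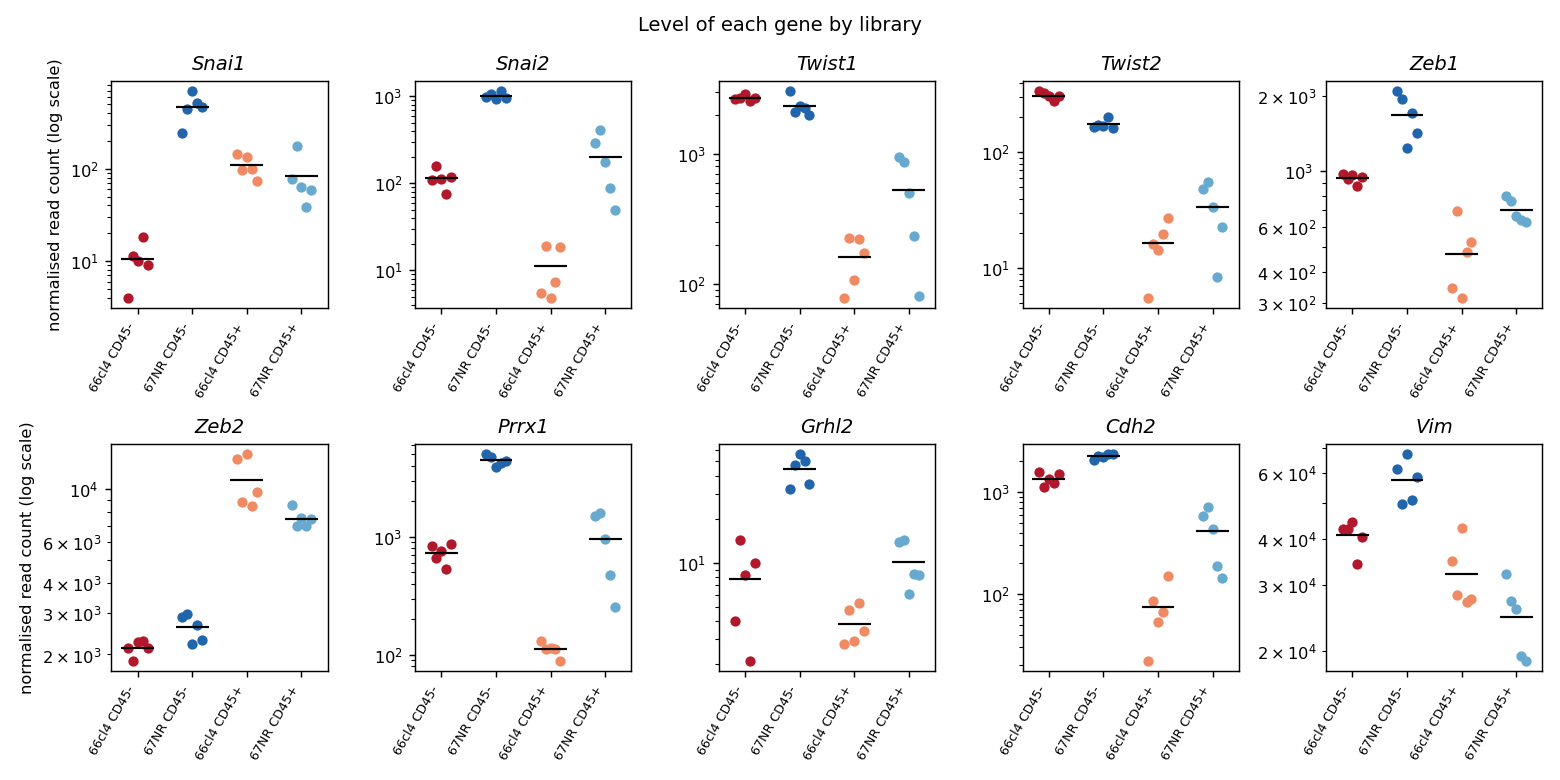
Normalised read counts of the 10 members on a log axis in each of the 20 libraries, grouped by tumour and gate, with the mean of each group of 5. Snai1 in the 66cl4 CD45- libraries stands at 3.98 to 18.1, below each of the other 15 libraries, and Zeb2 is higher in every CD45+ library than in any CD45- library.

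Snai1 encodes Snail, an early repressor of E-cadherin in the transition. In 67NR CD45- cells it stood at 241, 445, 690.2, 514 and 463 normalised reads in animals 1, 4, 5, 6 and 7. The 66cl4 CD45- libraries held 3.98, 11.2, 9.99, 18.1 and 8.98 in animals 3 to 7, which are 3 to 18 estimated reads each. The highest 66cl4 library was thus far below the lowest of 67NR (log2 fold change -5.42, SE 0.335, adjusted p 2.18e-08). Snai2, which encodes Slug, the relative of Snail used by mesenchymal and neural crest cells, stood at 110.2, 158, 112, 76.5 and 120 in 66cl4 and at 974, 1058, 936, 1144 and 957 in 67NR. The 67NR libraries spanned a narrow range and did not overlap with those of 66cl4 (log2 fold change -3.09, SE 0.155, adjusted p 6.94e-10).

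Prrx1, a homeobox factor of limb and craniofacial mesenchyme and of fibroblasts, stood at 839, 664, 763, 539.6 and 866 in the 66cl4 CD45- libraries. The values in 67NR were 5031, 4796, 3942, 4266 and 4416, again without overlap (log2 fold change -2.58, SE 0.128, adjusted p 5.93e-10). Grhl2, the grainyhead-like factor that opposes the transition and sustains Cdh1, was scarce in both tumours. It stood at 3.98, 14.3, 8.32, 2.12 and 9.98 in 66cl4 and at 32.5, 47.3, 56.2, 50 and 34.8 in 67NR, and the 66cl4 values rest on 2 to 23 estimated reads (log2 fold change -2.38, SE 0.373, adjusted p 6.44e-05). The epithelial factor and the 3 mesenchymal factors were therefore lower in the same tumour.

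Neither Twist gene was called. Twist1, a basic helix-loop-helix factor, stood at 2665, 2700.2, 2868, 2549 and 2693 normalised reads in 66cl4 CD45- cells. In 67NR it stood at 3027, 2083, 2317, 2254 and 1993, a range that holds all 5 of the 66cl4 values (log2 fold change 0.24, SE 0.107, adjusted p 0.0630). Twist2, its close relative in dermis and bone, was at 336, 322, 304, 275 and 306 in 66cl4 against 166, 171, 168, 202 and 164 in 67NR. The groups did not overlap, and the adjusted p was 3.63e-06, but the log2 fold change of 0.86 (SE 0.0996) was below the size needed for a call.

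Zeb1 and Zeb2 encode zinc finger repressors of E-cadherin and other junction genes. Zeb1 stood at 978, 931, 965, 875 and 950.3 in 66cl4 and at 2080.5, 1938, 1241, 1705 and 1427 in 67NR CD45- cells, without overlap (log2 fold change -0.80, SE 0.124, adjusted p 5.76e-05). Zeb2 overlapped between the tumours and its log2 fold change was -0.25 (SE 0.0968, adjusted p 0.0324). Cdh2, which encodes N-cadherin, had a mean of 1359 ± 191 (SD, n = 5) in 66cl4 and 2251 ± 125 in 67NR, and Vim, the vimentin gene, had 40813 ± 4017 and 57659.6 ± 7465. For both the groups did not overlap, and both log2 fold changes, -0.70 (SE 0.0973, adjusted p 2.17e-05) and -0.47 (SE 0.119, adjusted p 0.00312), were below the size for a call. Without overlap between tumours were 8 of the 10 members, all but Twist1 and Zeb2, against 52.9% of all genes tested. At any fold, 9 of 10 members had an adjusted p under 0.05, against 67.4% of all genes. The median log2 fold change of the members was -0.75, and that of all genes tested was -0.01.

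**Figure D2:**
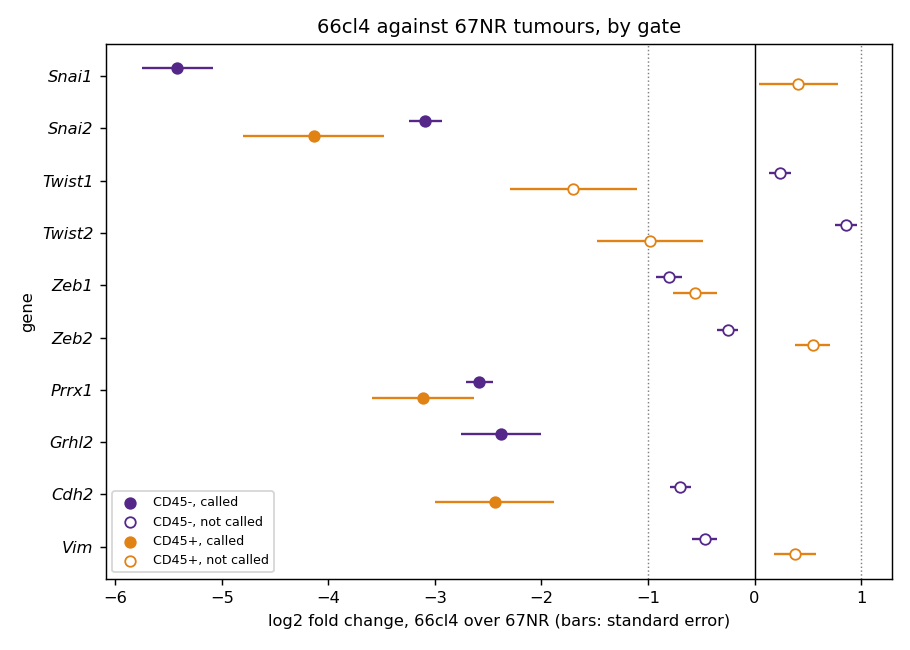
Log2 fold change of each member in 66cl4 against 67NR tumours, with its standard error, in CD45- and in CD45+ cells. In CD45- cells Snai1 lies farthest from 0 at -5.42, whereas in CD45+ cells Snai2 and Prrx1 lie farthest at -4.14 and -3.11 and Snai1 stands at 0.41.

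The genes these factors act with or upon were described from lists. Among 14 other transcription factors of the transition, 10 were tested in CD45- cells, of which 2 rose and 1 fell in 66cl4. Of all genes tested in CD45- cells, 32.2% were called, 13.2% higher and 18.9% lower, so this list lay near that share. Prrx2, the paralog of Prrx1, moved opposite to it, with 1678 to 2138 normalised reads in the 66cl4 libraries against 5.26 to 23.5 in those of 67NR (log2 fold change 6.97, SE 0.237, adjusted p 3.10e-11). Foxc1, a forkhead factor of mesenchyme and of basal-like breast cancer, rose from a mean of 679 to 4022 (log2 fold change 2.60, adjusted p 1.43e-09). Sox9, a factor of chondrocytes and progenitor cells, fell by 2.07 on the log2 scale (adjusted p 1.50e-06). The CD45- libraries of 66cl4 tumours thus had less of 1 Prrx paralog and more of the other.

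Of 15 regulators of the epithelial state, 6 were tested and 4 rose in 66cl4 CD45- cells, with a list median of 1.59. Over all genes tested, 13.2% were called higher. Klf5, a Krüppel-like factor of epithelial progenitors, rose from 524 to 2719 (log2 fold change 2.41, adjusted p 2.96e-10). Elf3, an epithelial ETS factor, rose at low levels, from 3.25 to 26.1 (log2 fold change 3.02, adjusted p 1.35e-05). Among 20 junction and surface genes of epithelium, 7 were tested. Krt8 and Krt18, the paired keratins of simple epithelium, rose from 61.6 to 5353 and from 58.6 to 1149 (log2 fold changes 6.47 and 4.32, adjusted p 9.41e-10 and 2.34e-06), while Epcam fell by 1.41 (adjusted p 0.0267). Cdh1 was scarce in both tumours, at 20.8 ± 4.11 and 32.9 ± 18.6 normalised reads (SD, n = 5; log2 fold change -0.65, SE 0.341, adjusted p 0.109). The keratins were thus high in 66cl4 while E-cadherin transcript was scarce.

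Genes of the mesenchymal state were all tested, and of these 20 genes 8 fell and 1 rose in 66cl4 CD45- cells. Over all genes tested, 32.2% were called, 18.9% lower and 13.2% higher. Mmp2, a gelatinase, fell from 3929 to 157 (log2 fold change -4.61, adjusted p 8.44e-09), and Fbn1, which encodes fibrillin of elastic microfibrils, fell by 1.92 (adjusted p 0.000424). Ncam1, a neural cell adhesion molecule, rose by 4.6 (adjusted p 4.25e-05). Of 14 genes of TGF-beta signalling, a main inducer of the transition, 7 rose and 1 fell. Tgfb2 and Tgfb1, both ligands, rose by 3.09 and 1.95 (adjusted p 3.24e-08 and 9.00e-08), and Tgfbi, a secreted target of the pathway, fell by 1.71 (adjusted p 0.0185). The inhibitors Id1 and Id2, which bind the partners of basic helix-loop-helix factors, rose by 2.01 and 1.91 (adjusted p 3.92e-07 and 1.80e-07), among 3 risen and none fallen of 17 partner and corepressor genes, all tested. Of the 9 filament partners of vimentin 6 were tested and 3 fell, with Synm and Des, encoding synemin and desmin, at log2 fold changes of -4.90 and -4.16 (adjusted p 5.09e-07 and 5.32e-08). Of 12 cadherin and catenin genes 8 were tested, of which Cdh13 rose by 3.47 (adjusted p 6.33e-07) and Jup fell by 2.71 (adjusted p 2.24e-06).

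Most stromal markers were called lower in 66cl4 CD45- cells, as were Snai1, Snai2 and Prrx1. The summed level of 10 fibroblast markers was 5399 to 7404 normalised reads in the 66cl4 CD45- libraries and 10409.5 to 14584 in those of 67NR. Of the 10, 8 were called lower, against 18.9% of all genes tested. A large part of the gap was Dpt, with means of 35.7 and 4261 in mean sums of 6463 and 12601. All 10 were detected in both tumours. Pdgfra, a defining receptor, was higher in 66cl4, with means of 4441 against 2953 and no overlap. Its log2 fold change of 0.62 (adjusted p 7.77e-05) was below the size for a call. Fap and Dpt fell by 3.44 and 6.86 (adjusted p 9.89e-09 and 1.41e-11). Of 7 pericyte markers 6 were called lower and Pdgfrb, the most abundant of them in 66cl4, was called higher (from 735 to 1853), so that their sums overlapped, at 1888 to 3188 and 1991 to 5871. Of 8 endothelial markers 7 were called lower, with sums of 690.5 to 1263 and 1332 to 5058. The part of these cells in the results was not tested.

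Promoter sequences were set beside the levels of the members that moved apart. RefSeq, on GRCm38.p6, gives a promoter for 6 of the 10 members, Vim, Snai1, Twist1, Twist2, Zeb2 and Prrx1. The 250 bases before the start are printed 5′ to 3′ for Snai1 (chr2:167537945-167538194, plus strand), Prrx1 (chr1:163313651-163313900, minus strand) and Twist2 (chr1:91801211-91801460, plus strand), because the first and second fell in 66cl4 CD45- cells and the last had the highest fold change among the members. Capitals mark CACCTG, the E-box that Snail and Zeb factors bind.
Snai1: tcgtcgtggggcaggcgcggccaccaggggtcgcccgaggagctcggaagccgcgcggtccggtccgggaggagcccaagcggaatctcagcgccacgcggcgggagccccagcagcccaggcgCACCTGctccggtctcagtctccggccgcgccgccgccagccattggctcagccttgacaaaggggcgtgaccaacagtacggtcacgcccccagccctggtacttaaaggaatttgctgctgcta
Prrx1: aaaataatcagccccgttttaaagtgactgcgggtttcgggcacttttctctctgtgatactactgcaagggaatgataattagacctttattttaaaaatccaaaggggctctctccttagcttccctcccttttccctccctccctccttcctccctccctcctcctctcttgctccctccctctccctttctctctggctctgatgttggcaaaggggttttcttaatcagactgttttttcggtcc
Twist2: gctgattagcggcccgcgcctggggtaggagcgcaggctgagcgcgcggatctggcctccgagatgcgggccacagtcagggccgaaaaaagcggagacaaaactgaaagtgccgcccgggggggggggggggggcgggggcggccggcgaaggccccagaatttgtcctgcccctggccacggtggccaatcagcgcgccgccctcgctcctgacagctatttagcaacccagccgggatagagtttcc
Searched on both strands, so also as CAGGTG, this E-box was present in the window of 1 of 6 members (16.7%), Snai1, with its first base at position -126 from the start, and in 17.2% of all 32851 promoters. The looser E-box CANNTG, which contains CACCTG, was also in 1 of 6 members, against 66.2% of all promoters. G and C made up 70% of the Snai1 window, 68.8% of that of Twist2, which holds GGGCGG, the GC box, 4 times on either strand, and 47.6% of that of Prrx1, against a median of 52.4% over all promoters. In the motif shares a gene held a motif if any of its promoter entries did, whereas all promoters were counted by entry. These matches describe letters and not bound sites.

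The same E-box was frequent in front of the genes the repressors are known to act on. It was found for 10 of 14 junction and surface genes with a promoter entry (71.4%), for 5 of 10 regulators of the epithelial state, and for 0 of 10 genes of the mesenchymal state. A gene counted if any of its entries held it, so these shares are not on the scale of the 17.2% over all promoter entries. Cdh1 had no promoter entry. The windows of 30 bases around it are shown for a junction gene of each direction in CD45- cells, Krt18, which rose in 66cl4, and Epcam, which fell and holds it in both orientations. Capitals mark the E-box, and its first base lies at -214 for Krt18 (chr15:102027990-102028019, plus strand), and at -187 and -19 for Epcam (chr17:87635780-87635809 and chr17:87635948-87635977, plus strand).
Krt18: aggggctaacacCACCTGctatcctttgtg
Epcam, distal: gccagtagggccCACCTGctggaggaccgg
Epcam, proximal: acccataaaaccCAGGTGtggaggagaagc
The E-box was thus present both before a gene that rose and before a gene that fell, the latter at low levels with overlap.

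The second comparison was of the immune cells of both tumours. In CD45+ cells 9 members passed the filter on low counts, all but Grhl2, and 3 were called, all lower in 66cl4, namely Cdh2, Snai2 and Prrx1, against 11.8% of all genes tested (6.82% lower and 5.01% higher). Snai2 stood at 5.56, 19.1, 4.82, 7.37 and 18.6 normalised reads in 66cl4 and at 290.3, 407, 178, 88.7 and 49.4 in 67NR. Even the lowest library of 67NR was above the highest of 66cl4, and the means differed by 18.3-fold (log2 fold change -4.14, SE 0.661, adjusted p 0.00167). Prrx1 stood at 131, 113, 114, 113 and 89.6 against 1511, 1606, 958, 477 and 253, also without overlap, an 8.59-fold difference of means (log2 fold change -3.11, SE 0.480, adjusted p 0.00148). Among the 9 members tested, the groups did not overlap for Snai2 and Prrx1, against 15.1% of all genes tested. They did not overlap for Grhl2 either, which was too low for the fit and is not part of that share.

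N-cadherin transcript was the last of the 3. Cdh2 stood at 22.3, 85.0, 53.0, 66.3 and 149 in 66cl4 and at 587, 710.0, 439, 188 and 143 in 67NR CD45+ cells. The top library of 66cl4 reached the lowest of 67NR, so the groups overlapped at their edges (log2 fold change -2.44, SE 0.559, adjusted p 0.0113). Cdh2 was not called without 66cl4 animals 5 and 6 (log2 fold change -2.26, adjusted p 0.0634), nor with the replicate number as a block (-1.89, adjusted p 0.120), and its adjusted p over all alternatives ran from 7.11e-06 to 0.120.

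Twist1 and Twist2 had lower means in 66cl4 CD45+ cells, 161 ± 66.2 against 523 ± 377 and 16.7 ± 7.86 against 33.8 ± 19.2 (SD, n = 5), with log2 fold changes of -1.70 (SE 0.598, adjusted p 0.0663) and -0.98 (SE 0.495, adjusted p 0.182). In 67NR, Twist1 ran from 938 in animal 1 down to 80.2 in animal 7, and without that last library it was called (-1.98, adjusted p 0.0128). DESeq2 and a fit on all 20 libraries called it too, and its adjusted p over the alternatives was 0.00700 to 0.511. Snai1, lower in the CD45- cells of 66cl4, stood at 146, 97.5, 135, 98.9 and 73.5 in CD45+ cells against 78.0, 176, 63.0, 38.3 and 58.6 in 67NR, with overlap (log2 fold change 0.41, SE 0.371, adjusted p 0.470).

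The Zeb factors and vimentin were not called between the immune cells. Zeb2, which macrophages, dendritic cells and other leukocytes need for their development, had a mean of 10913 ± 2672 in 66cl4 and 7521 ± 654 in 67NR (SD, n = 5; log2 fold change 0.55, SE 0.164, adjusted p 0.0328). Zeb1 stood at -0.56 on the log2 scale (SE 0.207, adjusted p 0.0749) and Vim at 0.38 (SE 0.20, adjusted p 0.201). Grhl2 was too low for the fit, with 2.78 to 5.26 normalised reads in 66cl4 and 6.10 to 14.3 in 67NR. Its groups did not overlap, and the two-sided exact permutation test of the means, 3.82 against 10.2, gave p = 0.00794, the smallest that 5 against 5 libraries allow. At any fold, 4 of 9 members had an adjusted p under 0.05, against 22.2% of all genes. The median log2 fold change over the 9 members was -0.98, against 0.01 over all genes tested.

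Leukocyte and stromal markers differed between these groups as well. Of 10 fibroblast markers 5 were called lower in 66cl4 CD45+ cells and 2 higher, against 6.82% and 5.01% of all genes tested. Their sums were 1823 to 2833 normalised reads against 2838 to 4465 in 67NR. A large part of these sums was Thy1, which T cells also make and which was called higher in CD45+ than in CD45- cells of both tumours. Without it the sums overlapped, at 1036 to 1706 and 922 to 3286. Most of the remaining 66cl4 sum was Col14a1 and Pi16, the 2 markers called higher, with means of 740 and 259 in a mean sum of 1320. In 67NR these 2 stood at 53.3 and 130 in a mean sum of 1893. Over 7 pericyte markers the sums overlapped, at 125 to 294 and 164 to 413. Neutrophil markers summed to 44190.5 to 125311 in 66cl4 and 7185 to 52320.3 in 67NR, with 5 of 7 called higher, and macrophage markers to 52057 to 79423 and 81197 to 122621. Their part in the results was not tested.

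Of the other lists, 3 of 11 transcription factors tested were called between the immune cells, 7 of 17 mesenchymal state genes and 4 of 5 filament partners of vimentin, against 11.8% of all genes, and none of 17 partner and corepressor genes. Prrx2 rose from 2.26 to 81.0 (log2 fold change 5.08, adjusted p 0.000124), while Sox9 and Wwtr1, which encodes the Hippo coactivator TAZ, fell by 3.38 and 2.32 (adjusted p 0.00118 and 0.00787). Krt8 and Krt18 rose by 4.87 and 3.18, and Mmp2 and Des fell by 4.63 and 4.75. In 66cl4 tumours, Krt8 and Krt18 had means of 296 and 58.4 normalised reads in CD45+ cells, against 5353 and 1149 in CD45- cells. Their log2 fold changes in CD45+ against CD45- cells of 66cl4 were -4.19 and -4.29. Whether the reads of these genes in the CD45+ libraries came from immune cells was not tested. Cdh1 was higher in 66cl4, at 394 ± 95.9 against 227 ± 18.2 normalised reads (SD, n = 5), with a log2 fold change of 0.80 (SE 0.165, adjusted p 0.00524) that was below the size for a call. Of 17 mesenchymal state genes tested, 3 rose and 4 fell. Of 13 TGF-beta genes tested, none rose and 2 fell, Ltbp1 and Ltbp3, which encode latent TGF-beta binding proteins, by 2.04 and 1.39.

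The third question was how each member divides between immune and non-immune cells of the same tumour. Both gates of an animal come from 1 tumour, and these comparisons use the same libraries as those above. In 67NR all 10 members were called, 9 lower in CD45+ cells and 1 higher, against 39.8% of all genes tested (19.6% lower and 20.2% higher). In 66cl4, 9 members were tested and 8 were called, 6 lower and 2 higher, against 44.4% (20.5% lower and 23.9% higher). At any fold, an adjusted p under 0.05 was reached by 9 of 9 members in 66cl4, against 73% of all genes, and by 10 of 10 in 67NR, against 67.3%. The groups did not overlap for 10 members in 67NR and for 8 in 66cl4, against 55.5% and 61.4% of all genes tested.

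**Figure D3:**
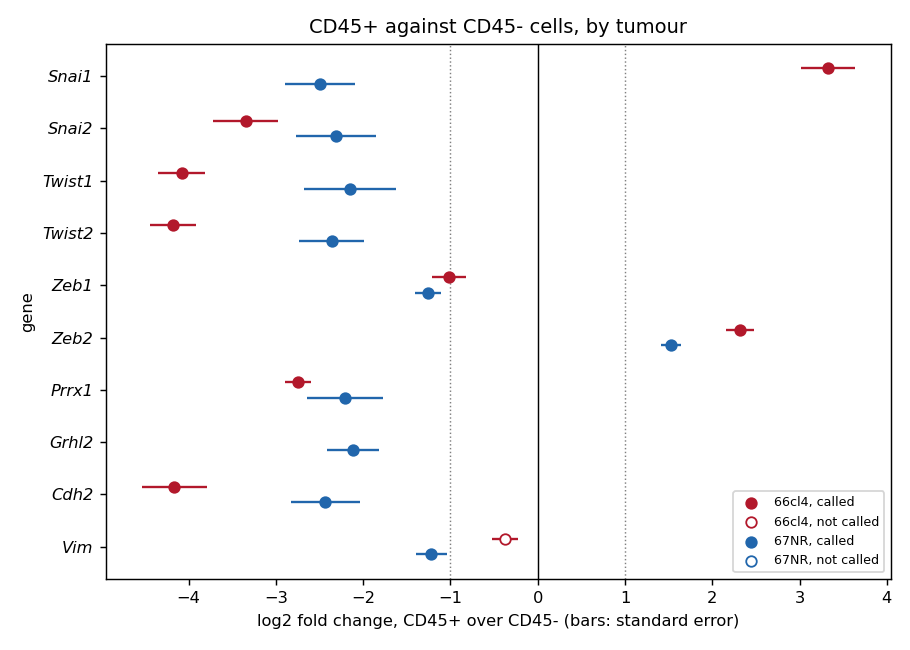
Log2 fold change of each member in CD45+ against CD45- cells, with its standard error, in 66cl4 and in 67NR tumours. Zeb2 lies above 0 in both tumours, at 2.32 and 1.53, and Snai1 lies on opposite sides, at 3.32 and -2.49.

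Zeb2 was the member of immune cells in both tumours. It stood at 13477, 8815, 14098, 8469 and 9708 in the 66cl4 CD45+ libraries against 2132, 1883, 2260, 2288 and 2133 in their CD45- libraries, a 5.10-fold rise of the mean (log2 fold change 2.32, SE 0.160, adjusted p 5.72e-08). In 67NR the means were 7521 ± 654 and 2606 ± 341 (SD, n = 5), a 2.89-fold rise (log2 fold change 1.53, SE 0.115, adjusted p 4.06e-07). Its paralog Zeb1 fell in CD45+ cells, by 1.02 in 66cl4 (SE 0.193, adjusted p 0.000401) and by 1.26 in 67NR (SE 0.152, adjusted p 2.16e-05). The first lay at the size needed for a call and was -0.91 without animals 5 and 6 (adjusted p 0.0102, over the alternatives 8.20e-06 to 0.0102).

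Snai1 changed sides between the tumours. In 66cl4 it was higher in CD45+ than in CD45- cells in every animal, at 548 to 3668% of the CD45- level, and its log2 fold change was 3.32 (SE 0.312, adjusted p 8.54e-07). In 67NR it was lower in CD45+ cells in every animal, at 7.46 to 39.5%, and its log2 fold change was -2.49 (SE 0.404, adjusted p 0.000210). The CD45+ values of both tumours overlapped, and the CD45- values did not.

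Cdh2, Snai2, Twist1, Twist2 and Prrx1 fell in CD45+ cells of both tumours. In 66cl4 their log2 fold changes were -4.16, -3.35, -4.08, -4.18 and -2.75 (adjusted p 9.38e-07, 3.96e-06, 5.92e-08, 2.41e-08 and 9.56e-09). The 67NR values were smaller in size for all 5, at -2.43, -2.31, -2.15, -2.36 and -2.21 (adjusted p 0.000216, 0.000921, 0.00357, 0.000157 and 0.000835). Grhl2 fell in 67NR (log2 fold change -2.12, SE 0.299, adjusted p 7.11e-05). In 66cl4 it did not pass the filter and its gates overlapped, with p = 0.135 in the two-sided exact permutation test of the means. Vim, present in both kinds of cells, fell by 1.22 in 67NR (SE 0.177, adjusted p 8.85e-05) and was not called in 66cl4 (log2 fold change -0.38, SE 0.149, adjusted p 0.0367). Cdh1 ran against Cdh2, with log2 fold changes of 4.22 (SE 0.208, adjusted p 5.06e-09) and 2.77 (SE 0.304, adjusted p 1.03e-05). The median over the members tested was -2.75 in 66cl4 and -2.18 in 67NR, against 0.00 and -0.05 over all genes.

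Within each of animals 1, 4 and 5 of 67NR, these 5 genes stood at similar shares of their CD45- level. The level in CD45+ cells was 28.6 to 31.0% of that in CD45- cells for the 5 genes in animal 1, 31.1 to 41.5% in animal 4 and 19.0 to 24.3% in animal 5. It was 4.16 to 11.2% in animal 6 and 4.03 to 13.8% in animal 7. In percentage points, genes within an animal thus lay closer together than animals 1 and 4 lay to animals 6 and 7. As folds, the genes spread more widely in animals 6 and 7 than in animals 1, 4 and 5. The CD45+ levels of these genes varied between 67NR animals with a coefficient of variation of 56.9 to 72.6%. Ptprc in the same CD45+ libraries was 16839.7, 15890.1, 21643, 28449 and 26600.1 in animals 1, 4, 5, 6 and 7, lowest in animals 1 and 4, where the shares were highest. The sum of 9 fibroblast markers without Thy1 was also highest in animals 1 and 4 and lowest in animals 6 and 7, at 24.4, 27.0, 14.8, 7.85 and 6.41% of its CD45- level in animals 1, 4, 5, 6 and 7. With Thy1, which stood above its CD45- level in CD45+ cells (log2 fold change 2.88), the shares were 27.3, 33.5, 25.8, 22.2 and 30.6%. The pericyte sum stood at 16.7, 7.04, 4.81, 5.36 and 10.3%. The part of Ptprc, fibroblast or pericyte levels in these values was not tested.

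**Figure D4:**
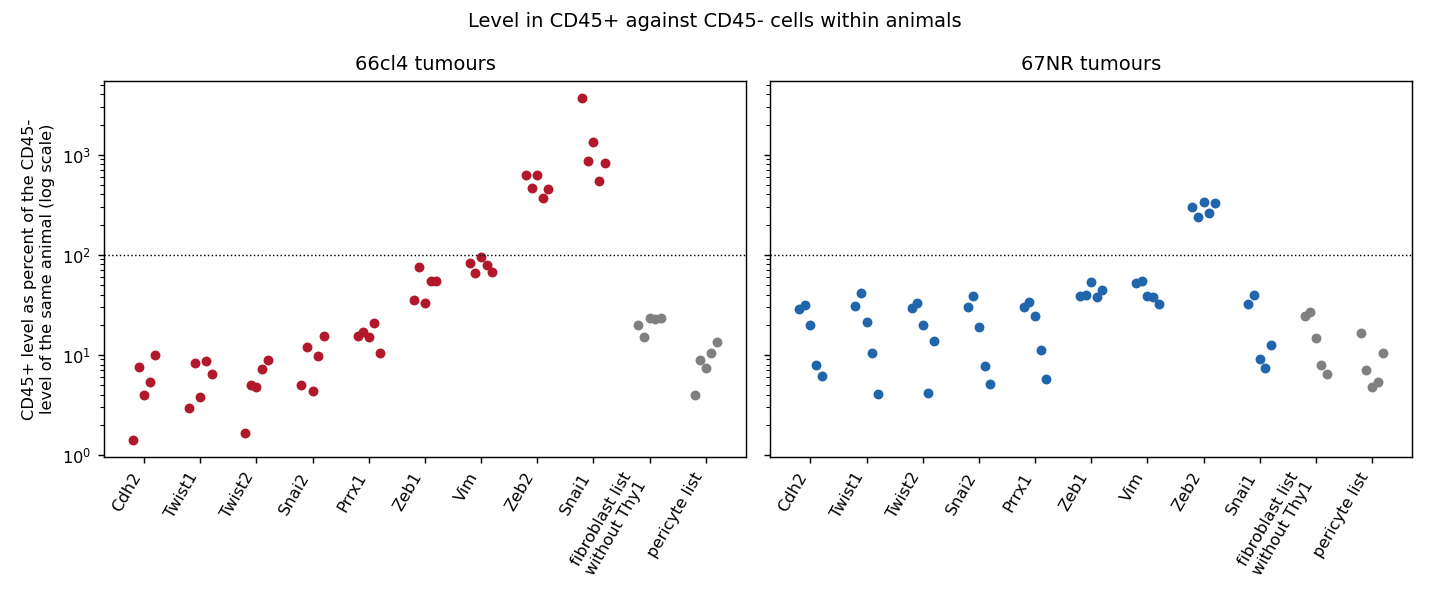
Level in CD45+ cells as a percent of the level in CD45- cells of the same animal, on a log axis, for 9 members, all but Grhl2, and in grey for the sums of the fibroblast markers without Thy1 and of the pericyte markers, with a point for each animal. In 67NR the shares of Cdh2, Snai2, Twist1, Twist2 and Prrx1 lie at 28.6 to 31.0% in animal 1 and at 4.03 to 13.8% in animal 7, whereas Zeb2 lies above 100% throughout. Most of the fibroblast sum in 66cl4 CD45+ cells is Col14a1 and Pi16, with means of 740 and 259 in a mean sum of 1320.

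In 66cl4, Prrx1 stood at 10.3 to 20.9% of its CD45- level, Snai2 at 4.32 to 15.5%, Cdh2 at 1.40 to 9.92%, Twist1 at 2.92 to 8.71% and Twist2 at 1.66 to 8.83% over the 5 animals. Medians of the 5 genes per animal were 2.92 to 9.92%, against 5.73 to 33.5% in 67NR. Vim and Zeb1 kept larger shares, at 66.3 to 95.9% and 32.6 to 74.8%.

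Whether the difference between tumours depends on the gate was tested as an interaction over all 20 libraries, in which an adjusted p under 0.05 was enough for a call. Of the 10 members 6 were called, 3 with a higher and 3 with a lower 66cl4 to 67NR ratio in CD45+ than in CD45- cells, against 43.1% of all genes tested (21.9% higher and 21.2% lower). The higher ones were Snai1 with a difference of 5.84 on the log2 scale (SE 0.544, adjusted p 6.59e-08), Vim with 0.86 (SE 0.221, adjusted p 0.00392) and Zeb2 with 0.81 (SE 0.188, adjusted p 0.00180). Twist1, Twist2 and Cdh2 stood at -1.90 (SE 0.599, adjusted p 0.0156), -1.80 (SE 0.461, adjusted p 0.00387) and -1.70 (SE 0.540, adjusted p 0.0161). Without 66cl4 animals 5 and 6, Twist1 (-1.88, adjusted p 0.0678) and Cdh2 (-1.51, adjusted p 0.0970) were not called, which left 4 members, and over all alternatives their adjusted p ran from 0.000708 to 0.0678 and from 0.00238 to 0.0970. For Snai2, Prrx1, Zeb1 and Grhl2 the differences were -1.0, -0.50, 0.26 and 1.05 (adjusted p 0.213, 0.398, 0.417 and 0.148).

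Ratios of paired genes within a library do not depend on the size factor. They are not corrected for length, so they are compared between groups and do not rank the partners. Of 16 such comparisons, each a two-sided exact permutation test of 5 against 5 libraries, 11 reached the smallest p, 0.00794, or 0.0115 after adjustment over the 16. Those between gates leave out the pairing of the gates by animal, and a permutation test within 5 pairs allows no p under 0.0625. In CD45- cells the log2 ratio of Snai2 to Snai1 was 3.50 in 66cl4 and 1.18 in 67NR, a difference of 2.32. In CD45+ cells it was -3.44 and 1.11, a difference of -4.55. The log2 ratio of Zeb1 to Zeb2 was lower in 66cl4 in both gates, with a difference of -0.53 in CD45- cells (-1.18 against -0.65) and of -1.13 in CD45+ cells (-4.56 against -3.43). Cdh2 against Cdh1, the cadherin switch of the transition, stood at 6.01 and 6.23 in CD45- cells, a difference of -0.22 (permutation p 0.556, adjusted 0.635). In CD45+ cells it was -2.60 in 66cl4 and 0.61 in 67NR, a difference of -3.21 at the smallest p. Twist1 to Twist2 was lower in 66cl4 CD45- cells, at 3.13 against 3.73, and in CD45+ cells the difference was -0.44 (permutation p 0.452, adjusted 0.603).

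**Figure D5:**
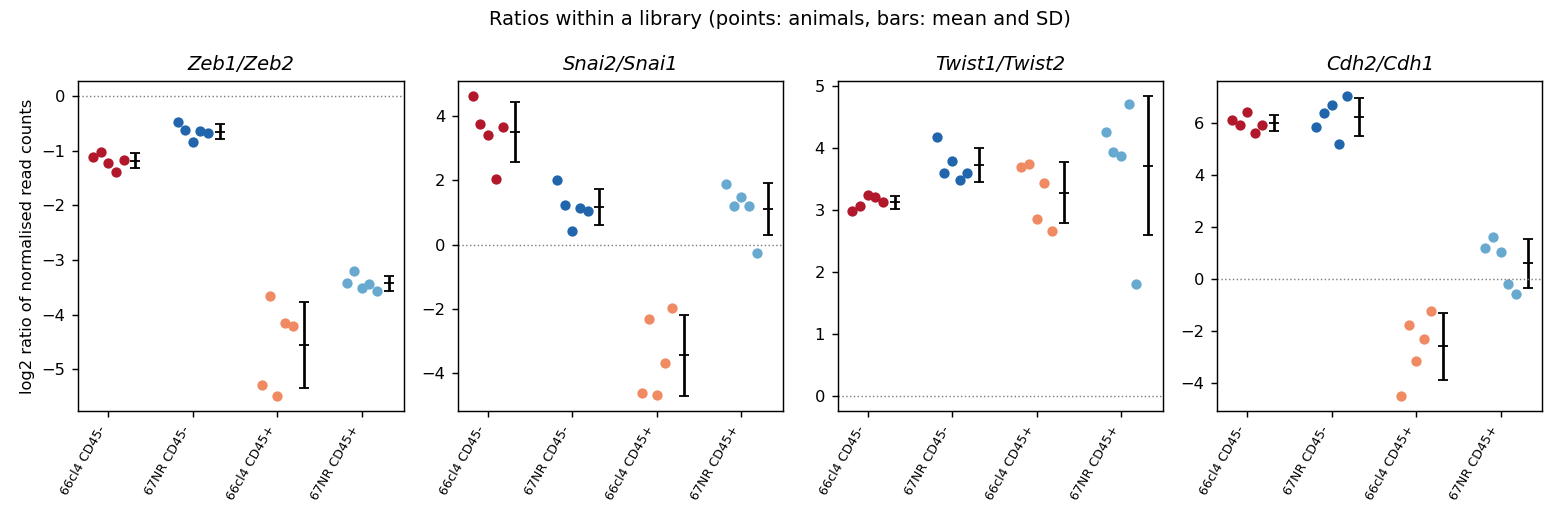
Log2 ratio of normalised reads for 4 pairs of genes in each of the 20 libraries, by tumour and gate, with group means. Snai2 to Snai1 has means of 3.50 and 1.18 in the CD45- cells of 66cl4 and 67NR and of -3.44 and 1.11 in CD45+ cells.

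Between gates, Cdh2 to Cdh1 differed by -8.61 in 66cl4 and by -5.62 in 67NR, and Zeb1 to Zeb2 by -3.37 and -2.78. Snai2 to Snai1 differed by -6.94 in 66cl4 and by -0.07 in 67NR (permutation p 0.913, adjusted 0.974). Twist1 to Twist2 was close to equal in both gates, with differences of 0.15 in 66cl4 (permutation p 0.508, adjusted 0.625) and -0.01 in 67NR (permutation p 1, adjusted 1).

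Levels can be compared between genes only per length, for which transcripts per 1000000 (TPM) were computed with the longest reference transcript of each gene. In 66cl4 CD45- cells the order was Vim at 1345 ± 187 TPM, Twist1 at 159 ± 14.5, Cdh2 at 27.0, Zeb2 at 22.5, Zeb1 at 15.6, Twist2 at 11.8, Prrx1 at 10.9, Snai2 at 5.50, Snai1 at 0.612 and Grhl2 at 0.152 (n = 5). Twist2 and Prrx1 were neighbours within their spread. The order in 67NR CD45- cells was Vim, Twist1, Prrx1 at 63.3 ± 8.84, Snai2 at 46.4 ± 8.01, Cdh2 at 42.9 ± 6.0, then Zeb1, Snai1 and Zeb2 at 26.7, 26.7 and 26.4, Twist2 at 6.36 and Grhl2 at 0.823. Snai2 and Cdh2, and the 3 genes that follow, did not differ beyond their spread. In CD45+ cells Vim and Zeb2 led in both tumours, at 1047 and 115 TPM in 66cl4 and 771 and 76.3 in 67NR, with Twist1 after them at 9.39 and 28.4. With the median transcript length, a setting added after these values were seen, Vim stayed highest and Grhl2 lowest in each group, but the order between them changed. In 67NR CD45- cells Zeb2 reached 84.8 TPM, above Twist1 at 81.5, and Zeb1 reached 71.3, above Prrx1 at 51.9. Zeb2 and Zeb1 passed Cdh2 in 66cl4 CD45- cells, at 70.3 and 40.4 against 20.8. In CD45+ cells Zeb1 passed Twist1, at 19.4 against 5.43 in 66cl4 and 28.6 against 17.4 in 67NR.

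Exons of antisense genes overlap those of 4 members, and the strand setting of the counting is not given in the sources used here. Whether reads of the overlapping stretches were assigned to the right gene therefore cannot be told. Zeb2os had means of 327 and 321 normalised reads in the CD45+ cells of 66cl4 and 67NR and of 65.2 and 55.6 in CD45- cells, small beside Zeb2. Gm29100, antisense to Twist2, had 42.7 in 67NR CD45- cells against 14.2 in 66cl4. Gm10125 at Zeb1 had 23.5 to 54.2 and Gm16136 at Grhl2 no more than 0.507.

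The genes whose log2 levels ran most like each member over the 20 libraries were ranked by Pearson correlation, as a description, since libraries of 1 gate and tumour share their cell mixture. Cdh2 ran with Fam171a1 (0.995), Nckap1 (0.995) and Sparc (0.994), a matrix protein gene. Twist1 ran with Yap1 (0.990), the Hippo coactivator, and Snai2 and Prrx1 both had Eda2r, a receptor gene, among their 3 nearest (0.991 and 0.985). Prrx1 was nearest to Cd34 (0.989), a surface protein of progenitors and fibroblasts, and Zeb2 to Dab2 (0.990), an endocytic adaptor of macrophages. Snai1, high in 67NR CD45- cells, was nearest to Igf2r (0.973), Gas2l1 (0.967) and Dusp6 (0.960), a phosphatase that acts on ERK. Grhl2 and Vim had weaker matches, led by Art3 (0.957) and Rassf8 (0.930).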

How the data were processed

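RNA from cells sorted on CD45 was sequenced as single reads after library preparation with the SENSE mRNA-Seq kit V2, which selects poly(A) RNA. The authors trimmed reads with fastp, quantified transcripts with Salmon (version 1.3.0 in the submitters' processing notes), used tximport for sums per gene, and deposited estimated counts that were not normalised. GRCh38, a human build, is named for this step, although the identifiers are those of mouse genes, and the strand setting is not given in the sources used here. The table held 52783 genes, of which 51492 had a symbol in the reference names, and 20231 were at 0 in every library. Counts were rounded to whole numbers, a change of at most 0.5. At totals of 12959951 to 28080226, a count of 0 allows up to 3 counts, which covers counting error only. Replicates of a group differed beyond sampling noise in every pair.

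Libraries were grouped by their titles. The test was edgeR's quasi-likelihood F (version 4.0.16, R 4.3.3, TMM, minimum count 10, minimum total 15, robust fit), with Benjamini-Hochberg adjustment over all genes tested and only the groups compared in the fit, except for the interaction over 20 libraries. Levels were counts divided by size factors of DESeq2 1.42.0. Ratios, with a pseudocount of 0.5, and members under the filter were compared with exact permutation tests. TPM used reference transcript lengths, which 1291 genes with 2.58% of all counts lacked. Python 3.11.15 and matplotlib 3.10.9 drew the figures.

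Named are the members, Ptprc, Cdh1, the marker genes, for each list up to 2 called genes with the largest change in each direction at a mean of at least 10 normalised reads, and the genes most like a member. Markers named singly and the antisense genes were picked with their values in view, and the fibroblast sum without Thy1 was added after they were seen. The members, lists and tests were chosen with earlier results of these data known. Alternatives were DESeq2's test, RLE factors, no filter, all 20 libraries in a fit, a replicate block, omission of each library or of 66cl4 animals 5 and 6, and for ratios other pseudocounts, raw counts and a count minimum. Gates of 1 tumour are paired by animal, and same-numbered libraries correlated at 0.0251 to 0.148 in 66cl4 and -0.00326 to 0.324 in 67NR. The statistics were tried on simulated data.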

Additional observations from a re-analysis of the deposited data

Results flagged for a closer look

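The difference between 66cl4 and 67NR tumours itself differed between the gates for 6 of 10 members, by the interaction in edgeR. The share over all genes tested was 43.1%. The log2 difference of the tumour effect in CD45+ minus that in CD45- cells was 5.84 for Snai1, 0.86 for Vim and 0.81 for Zeb2, and it was -1.90 for Twist1, -1.80 for Twist2 and -1.70 for Cdh2. Without 66cl4 animals 5 and 6, Twist1 and Cdh2 were not called (adjusted p 0.0678 and 0.0970). Snai1, called in CD45- cells at -5.42, stood at 0.41 in CD45+ cells, where it did not pass the test.

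Among 56 groups of 5 libraries examined for a library far from the others, 2 held one, against about 2.8 that chance would give. Snai1 in 67NR CD45+ cells stood at 176 normalised reads in animal 4 against 38.3 to 78.0 in the other 4 animals. Twist2 in 67NR CD45- cells stood at 202 in animal 6 against 164 to 171 in the others.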

How the results depend on the processing

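In CD45- cells 4 members were called under every alternative, with ranges of -5.68 to -5.24 for Snai1, -3.24 to -2.90 for Snai2, -2.63 to -2.45 for Prrx1 and -2.75 to -2.07 for Grhl2 on the log2 scale. In CD45+ cells 5 members were called with all 20 libraries in the fit, where Twist1 (-1.66, adjusted p 0.00700) and Grhl2 (-1.34, adjusted p 0.0224) joined, and without 1 library 3 to 4. Grhl2 did not pass there with DESeq2 (-1.39, adjusted p 0.0696) or without the filter (-1.37, adjusted p 0.0948). Leaving out each library gave 7 to 8 members in the 66cl4 gates, 10 in those of 67NR and 6 in the interaction. Zeb1 in the 66cl4 gates was below the size for a call with DESeq2 (-0.97), RLE factors (-0.95), all 20 libraries (-0.98), and without animal 3 or 5 of the CD45+ or animal 5 or 7 of the CD45- libraries (-0.87, -0.90, -0.98 and -0.99), and its interaction turned to -0.0259 without 66cl4 CD45+ animal 4. The replicate block changed the member call given above for Cdh2 in CD45+ cells and no other. Libraries of different tumours have no more than a number in common, with correlations of 0.00594 to 0.0829 in CD45+ and -0.145 to 0.00874 in CD45- cells over 4 pairs. For ratios between gates, 0 passed in either tumour with the block, where 5 pairs allow no p under 0.0625, and 0 in 66cl4 without animals 5 and 6, where the smallest p is 0.1, so these say nothing of stability. The difference in Twist1 to Twist2 between tumours in CD45+ cells passed without 67NR animal 7 (-0.92, adjusted p 0.0317; 0.452 was the unadjusted p with it). Differences near 0 changed sign, with Twist1 to Twist2 at -0.19 in 66cl4 gates with a pseudocount of 5, and in 67NR gates at 0.47, 0.10 and 0.0012 without CD45+ animal 7, CD45- animal 1 and CD45- animal 5, where Snai2 to Snai1 was 0.27 and 0.14 without CD45+ animal 7 and CD45- animal 1. The causes were not tested. Without 1 library, 67NR gates gave -0.27 to 0.27 for Snai2 to Snai1 and -0.26 to 0.47 for Twist1 to Twist2, and the interaction of Zeb1 -0.03 to 0.36. Of 40 TPM levels, 25 moved by more than 1 SD with the median transcript length. Counts of 2 to 23 limit Grhl2, and of 3 to 18 Snai1, in 66cl4 CD45- cells.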

Other observations

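Itgb2, the integrin beta 2 subunit of leukocytes, was high in CD45- cells of 66cl4 tumours, at 3434 ± 210 normalised reads (SD, n = 5; 3204 to 3647), against 232 ± 64.2 in 67NR (176 to 313). Its log2 fold change was 3.92 (edgeR, adjusted p 1.01e-10), while the other 5 genes of the general leukocyte list were called lower in 66cl4 or not called. Ptprc, Laptm5 and Spi1 stood at -1.79, -1.93 and -1.78, Cd53 at -0.22 (adjusted p 0.611) and Coro1a at -0.48 (adjusted p 0.165). Cd79a, a B cell gene, was called higher in the same cells (log2 fold change 2.16, adjusted p 1.17e-05). In CD45+ cells Itgb2 had means of 13077 and 7484 in 66cl4 and 67NR.

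Klf8, a Krüppel-like repressor among the other factors of the transition, was higher in CD45+ than in CD45- cells of both tumours, with log2 fold changes of 6.19 in 66cl4 and 2.59 in 67NR, where most factors of that list were lower (9 of 11 tested in 66cl4 and 7 of 10 in 67NR). Over all genes tested, 20.5% were called lower in 66cl4 and 19.6% in 67NR. In 66cl4 Klf8 stood at 54.7 to 109 normalised reads in CD45+ and 0 to 2.5 in CD45- libraries.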
